A study of Rattus norvegicus with 4 samples.

Results

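The 10 genes described here are established transcriptional targets of p53: Cdkn1a, Mdm2, Gdf15, Btg2, Phlda3, Fas, Bbc3, Bax, Ccng1 and Gadd45a. They were taken by name, through every gene probe that carried one of these names on the array, with the older name Tnfrsf6 read as Fas. This gave 14 of the 41012 gene probes of the array: 2 each for Cdkn1a, Mdm2, Fas and Ccng1, and 1 each for the other genes. The array carried 35561 gene names in all. The cells were rat hepatic stellate cells, the pericytes of the liver sinusoid that store retinoids and turn into matrix-producing myofibroblasts in injured liver. Cells transfected with an siRNA against endoglin, a co-receptor for TGF-beta ligands, were set against cells transfected with a control siRNA, and so were untreated cells that received no siRNA. Each group was measured on 2 two-colour Agilent arrays, 1 with cells of 1 animal and 1 with cells pooled from 3 animals. The labels give no strain, age, siRNA sequence, transfection reagent or harvest time.

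On every array the endoglin siRNA or untreated sample was labelled with Cy5 and the control siRNA sample with Cy3. The control siRNA cells therefore have no array of their own, and the dyes were not swapped. A difference between control siRNA cells and either other group cannot be told apart from a dye preference of the probe, whereas the dyes are the same on both sides of the comparison of endoglin siRNA cells with untreated cells. The labels do not say whether arrays shared a preparation of control RNA, or animals. The p-values measure only the spread between these arrays, which may be technical. It holds the spread of the control siRNA samples only if each array had its own preparation of them. In RNA from a whole culture, fewer cells that express a gene and less RNA per cell cannot be told apart.

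The p53 protein is a transcription factor that is held low by Mdm2 and stabilised by DNA damage and other stresses. Its targets divide the work: Cdkn1a (p21) inhibits cyclin-dependent kinases, Gadd45a and Btg2 restrain growth, Bbc3 (PUMA), Bax and the death receptor Fas promote apoptosis, and Mdm2 closes a negative feedback loop on p53. In liver fibrosis, arrest or death of activated stellate cells limits the scar. Several of these genes also answer to other pathways; Cdkn1a is induced by TGF-beta and Gdf15 by the integrated stress response.

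The siRNA target was lower in the cells that were meant to lack it. The log2 ratio of endoglin (Eng) to control siRNA was -3.08 with cells of 1 animal and -1.72 with the pool in endoglin siRNA cells, against -0.36 and -0.42 in untreated cells. Against control siRNA it fell by 2.40 ± 0.25 on the log2 scale (SE, limma adjusted p = 0.0042). Of 11 stellate cell markers with a measured probe, 10 were well above background in all 8 channels, Gfap was in 3 of the 8, and Acta2 had no probe by that name. The share of spots well above background lay between 65.7% and 93.3% in the Cy5 channel and between 61.9% and 87.2% in the Cy3 channel. All 14 p53 target probes were well above background in every channel, none was saturated, and all were among the 29845 probes tested.

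A limit of the background correction touches the pooled arrays. A total of 10 disturbed spots, 6 on the pooled untreated array and 4 on the pooled endoglin siRNA array, had signals far below their local background. Leaving them out changes the fitted background, and with it the ratios, on those arrays. For the p53 target probes, the same values with the background fitted without these spots are therefore given wherever they change a call. For the other genes named here such values are not given, and whether their calls change was not tested.

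Promoter sequence, 250 bases before the annotated start of transcription, is shown for 4 of the genes: the 2 with a paired p53-like element of 20 bases in this window and the 2 whose probes moved most against control siRNA among those that passed the test. It was read from RefSeq (GRCr8), which held a promoter for 8 of the 10 genes, all but Bbc3 and Bax. The regions are chr20:7150682-7150931 on the plus strand for Cdkn1a, chr10:25684877-25685126 on the minus strand for Ccng1, chr1:241211905-241212154 on the plus strand for Fas and chr13:49744753-49745002 on the plus strand for Phlda3. Each is written 5′ to 3′, and capitals mark a run of 20 bases that differs from a pair of adjoining consensus p53 elements by at most 3 bases.
Cdkn1a: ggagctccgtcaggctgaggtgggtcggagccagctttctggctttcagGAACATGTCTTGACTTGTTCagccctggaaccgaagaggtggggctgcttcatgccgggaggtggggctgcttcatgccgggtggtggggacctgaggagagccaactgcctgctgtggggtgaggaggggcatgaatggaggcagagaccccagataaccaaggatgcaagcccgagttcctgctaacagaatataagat
Ccng1: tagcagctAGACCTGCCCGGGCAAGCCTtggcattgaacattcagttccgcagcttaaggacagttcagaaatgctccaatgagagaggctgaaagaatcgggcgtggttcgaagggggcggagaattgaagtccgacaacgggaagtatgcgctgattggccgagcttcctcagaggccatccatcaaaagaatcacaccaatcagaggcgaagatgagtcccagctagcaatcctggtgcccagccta
Fas: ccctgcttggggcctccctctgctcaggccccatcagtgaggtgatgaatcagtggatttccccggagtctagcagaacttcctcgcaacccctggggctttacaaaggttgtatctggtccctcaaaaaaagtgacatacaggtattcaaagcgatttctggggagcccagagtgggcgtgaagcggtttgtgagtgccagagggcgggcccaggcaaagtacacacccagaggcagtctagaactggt
Phlda3: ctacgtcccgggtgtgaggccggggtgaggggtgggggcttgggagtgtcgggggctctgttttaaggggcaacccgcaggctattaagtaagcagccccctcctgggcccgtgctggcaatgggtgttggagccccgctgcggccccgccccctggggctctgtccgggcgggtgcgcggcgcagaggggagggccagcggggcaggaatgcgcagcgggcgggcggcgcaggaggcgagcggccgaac

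The run in Cdkn1a, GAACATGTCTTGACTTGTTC, began 201 bases before the start and had 1 mismatch. The run in Ccng1, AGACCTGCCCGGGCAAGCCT, began 242 bases before the start and also had 1 mismatch. Runs with at most 3 mismatches were searched on both strands in the 300-base window that ends 50 bases after the start. They were present in 6.18% of 33469 RefSeq promoters, and the share with at most 1 mismatch was not counted. A single 10-base consensus element without mismatch was found in Cdkn1a, Ccng1 and Gadd45a, 3 of the 8 genes, and in 7.98% of all promoters. For the others these letters were not in this window. The known p53-responsive promoter of Mdm2 lies in its first intron, which is outside it.

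Loss of endoglin within transfected cells was addressed by endoglin siRNA against control siRNA. Fas and Bbc3, both promoters of apoptosis, were higher in endoglin siRNA cells, by 1.40-fold (Fas probe A_42_P652897), 1.21-fold (Fas probe A_44_P463745) and 1.25-fold (Bbc3). Phlda3, an inhibitor of Akt signalling, was 1.52-fold lower. These 4 probes passed the test, 3 higher and 1 lower among 14, where 8.28% of all probes passed, 5.19% higher and 3.09% lower. At an unadjusted p under 0.05 the counts were 9 of the 14 probes and 23.2% of all probes. The median log2 difference of the p53 target probes was 0.26, against 0.02 over all probes, and 10 of the 14 were positive on both arrays, as were 41% of all probes.

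For Fas probe A_42_P652897 the log2 ratios to control siRNA were 0.43 with 1 animal and 0.54 with the pool in endoglin siRNA cells, against -0.02 and -0.16 in untreated cells. Both endoglin siRNA arrays lay above both untreated arrays. The difference from control siRNA was 0.48 ± 0.07 (SE, limma adjusted p = 0.0085), and it passed whichever of the 4 arrays was left out (0.43 to 0.54, adjusted p between 0.0193 and 0.0286). Leaving out either untreated array gave the same fit of endoglin siRNA against control siRNA, so the 4 omissions are not 4 separate checks. The control channel of this probe was not alike on the 1-animal arrays: its net Cy3 signal was 2779 on the endoglin siRNA array and 1742 on the untreated array, against 3606 and 3546 on the pooled arrays.

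The dimmer Fas probe, A_44_P463745, had ratios of 0.24 and 0.31 in endoglin siRNA cells, against -0.10 and -0.11 in untreated cells. Both endoglin siRNA arrays again lay above both untreated arrays. Its difference from control siRNA of 0.27 ± 0.06 (adjusted p = 0.0353) was lost whichever of the 4 arrays was left out (0.24 to 0.31, adjusted p between 0.0804 and 0.11).

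Bbc3 encodes PUMA, a protein that inactivates the anti-apoptotic members of the Bcl-2 family. Its ratios were 0.36 and 0.29 in endoglin siRNA cells, against 0.03 and -0.02 in untreated cells. The untreated ratios lay on either side of 0, and both endoglin siRNA arrays lay above both untreated arrays. The difference between endoglin siRNA and untreated cells did not pass (limma adjusted p = 0.34). The difference from control siRNA was 0.32 ± 0.06 (adjusted p = 0.0223). Without the pooled endoglin siRNA array it was 0.36 (adjusted p = 0.0356). It did not pass without the 1-animal endoglin siRNA array (0.29, adjusted p = 0.129) or without either untreated array (0.32, adjusted p = 0.0524 in each case).

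Phlda3 ran the other way from the rest. Its ratios were -0.72 and -0.48 in endoglin siRNA cells, against -0.56 and -0.70 in untreated cells, so all 4 normalised ratios were below 0 and the groups overlapped. Against control siRNA it fell by 0.60 ± 0.08 on the log2 scale (adjusted p = 0.00709), and it passed whichever of the 4 arrays was left out (-0.72 to -0.48, adjusted p between 0.00401 and 0.0371). With each array centred on its median in place of the intensity-dependent dye correction the difference turned to 0.48, where the median of all probes also moved to 0.32.

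Ccng1, encoding cyclin G1, and Gadd45a came close to the threshold. Ccng1 probe A_44_P367761 had ratios of 0.19 and 0.42 in endoglin siRNA cells, against 0.03 and -0.10 in untreated cells, with a difference from control siRNA of 0.30 ± 0.08 (adjusted p = 0.0547). It passed with the background fitted without the disturbed spots (0.32, adjusted p = 0.0411), where the count became 4 higher and 1 lower of 14, and 8.77% of all probes were higher and 8.07% lower. The second Ccng1 probe, A_44_P235919, had ratios of 0.03 and 0.44, against -0.21 and -0.09, and its difference of 0.24 ± 0.10 did not pass (adjusted p = 0.198). Without the 1-animal endoglin siRNA array both Ccng1 probes passed, at 0.42 (A_44_P367761, adjusted p = 0.0494) and 0.44 (A_44_P235919, adjusted p = 0.0433). Gadd45a had ratios of 0.45 and 0.17 in endoglin siRNA cells, against 0.18 and 0.12 in untreated cells, with a difference from control siRNA of 0.31 ± 0.08 (adjusted p = 0.0559). It passed without the pooled endoglin siRNA array (0.45, adjusted p = 0.0179).

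Gdf15, a secreted stress cytokine, and Btg2 had the widest spread between arrays. Gdf15 had ratios of 1.07 with 1 animal and 0.0017 with the pool in endoglin siRNA cells, against 0.04 and -0.52 in untreated cells. Only the 1-animal endoglin siRNA array was high, and the difference from control siRNA of 0.54 ± 0.23 did not pass (adjusted p = 0.212). Without the pooled endoglin siRNA array it was 1.07 (adjusted p = 0.00828). The net Cy3 signal of Gdf15 in the 1-animal control siRNA samples was 192 on the endoglin siRNA array and 352 on the untreated array; the part of this in the ratio was not tested. Btg2 had ratios of 0.48 and 0.28 in endoglin siRNA cells, against 0.02 and -0.62 in untreated cells, and its difference of 0.38 ± 0.14 did not pass (adjusted p = 0.139). Fitted without either untreated array, the same difference passed (adjusted p = 0.0447).

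Cdkn1a, Bax and Mdm2 did not pass in endoglin siRNA cells against control siRNA cells. Cdkn1a probe A_44_P914438 differed by 0.14 (95% interval -0.0028 to 0.28, adjusted p = 0.225), Bax by 0.05 (-0.10 to 0.20, adjusted p = 0.713), and the Mdm2 probes by 0.03 (A_43_P16885, -0.13 to 0.19) and 0.04 (A_44_P634946, -0.16 to 0.25). On both Mdm2 probes the 1-animal array was below and the pooled array above control siRNA. The dim Cdkn1a probe A_44_P515275 had ratios of 0.18 and 0.02, against 0.01 and -0.19 in untreated cells.

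**Figure D1:**
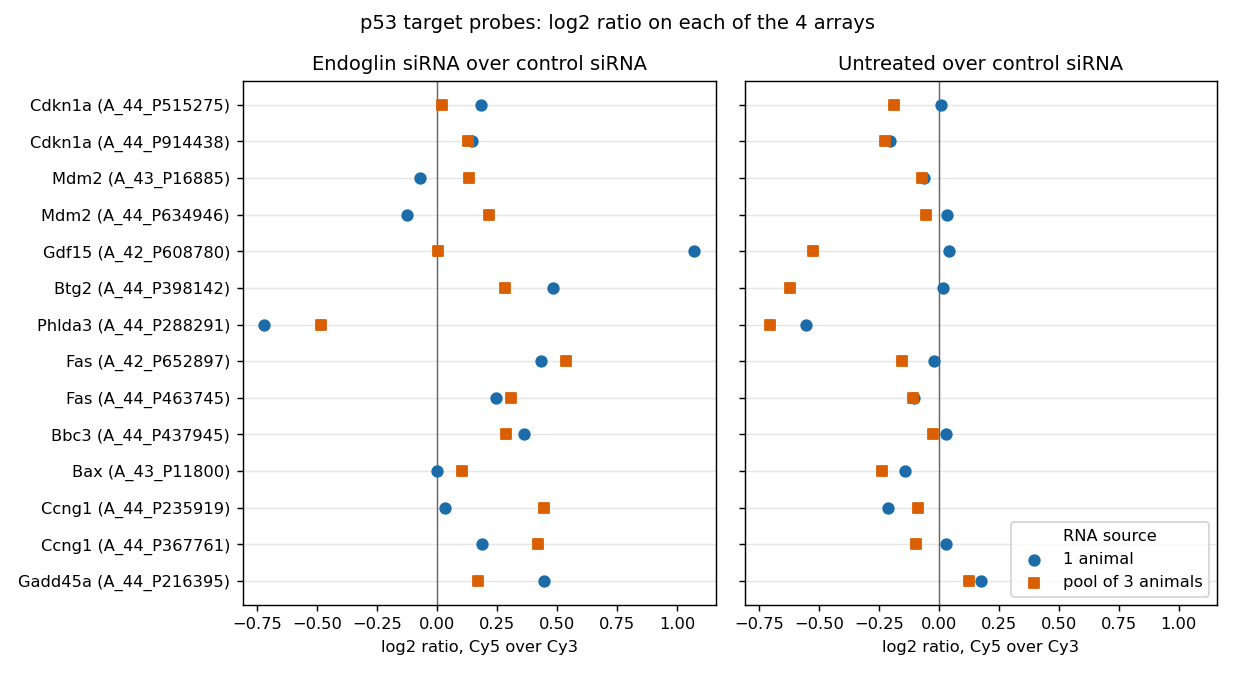
Log2 ratio (horizontal axis) to control siRNA of each of the 14 p53 target probes (rows), in endoglin siRNA cells (left) and untreated cells (right); circles are cells of 1 animal and squares are pools of 3 animals. Both Fas probes and Bbc3 lie at 0.24 or above on both endoglin siRNA arrays, and Phlda3 lies at -0.48 or below on all 4 arrays.

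Transfection itself was addressed by control siRNA against untreated cells, which is the ratio of the untreated arrays with its sign turned. Of the 14 probes only Phlda3 passed, 1.55-fold higher in control siRNA cells, and none passed as lower. Over all probes 0.834% passed, 0.348% higher and 0.486% lower. At an unadjusted p under 0.05 the counts were 3 of 14 and 14% of all probes. The median difference of the 14 probes was 0.10, against 0.00 over all probes (0.0014 before rounding), and 7 of the 14 were positive on both arrays, as were 33.2% of all probes.

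The Phlda3 difference was 0.63 ± 0.08 (limma adjusted p = 0.0246). It did not pass without the 1-animal untreated array (0.70, adjusted p = 0.111) or without the pooled untreated array (0.56, adjusted p = 0.258). Since the ratio of Phlda3 was below 0 on all 4 arrays, a higher level in control siRNA cells and a dye preference of this probe cannot be told apart. In the comparison that holds the dye constant, endoglin siRNA against untreated, its difference was 0.03 (95% interval -0.23 to 0.29).

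The other members did not pass. Cdkn1a probe A_44_P914438 differed by 0.22 ± 0.06 (adjusted p = 0.162) and Bax by 0.19 ± 0.07 (adjusted p = 0.242), each higher in control siRNA cells on both arrays. Btg2 differed by 0.30 (95% interval -0.014 to 0.62) and Gdf15 by 0.24 (-0.29 to 0.77), and in both the difference came from the pooled array, with the 1-animal ratio at -0.02 for Btg2 and -0.04 for Gdf15. Fas probe A_42_P652897 differed by 0.09 (-0.07 to 0.25), Bbc3 by -0.0016 (-0.15 to 0.14) and Gadd45a by -0.15 (-0.33 to 0.03).

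Markers of macrophages moved in the same comparison. All 12 measured Kupffer cell and macrophage markers had negative differences between control siRNA and untreated cells, with a median of -0.75. Of these, 4 fell past the test (C1qa, C1qb, Cd68 and Lyz2), where 0.486% of all probes were lower. Between endoglin siRNA and control siRNA cells 1 of the 12 passed, Cd14 (0.55, higher in endoglin siRNA cells). Over all probes 5.19% were higher and 3.09% lower there. The ratios of Cd14 to control siRNA were 0.35 and 0.75 in endoglin siRNA cells, against 0.51 and 0.48 in untreated cells. Its difference between endoglin siRNA and untreated cells was 0.05 (limma adjusted p = 0.981). Before normalisation, the summed net signal of the 12 in Cy5 over Cy3 was 3.26 and 3.55 on the endoglin siRNA arrays, against 5.55 and 9.79 on the untreated arrays. The part of macrophages in the values of the p53 targets was not tested.

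Transfection and endoglin siRNA together were addressed by endoglin siRNA against untreated cells. None of the 14 probes passed (limma; 9 of 14 at an unadjusted p under 0.05, against 8.03% of all probes), where 0.101% of all probes passed, 0.0369% higher and 0.0637% lower. All 14 differences were positive, as were 58.3% over all probes, with a median of 0.33 against 0.02. For 9 of the 14 both endoglin siRNA arrays lay above both untreated arrays, which held for 24.1% of all probes, and for 0 they lay below, which held for 11.5%. With the background fitted without the disturbed spots 12 of the 14 were positive, and Phlda3 (-0.03) and Mdm2 probe A_44_P634946 (-0.01) were not. Of the 12 macrophage markers 1 was positive in this comparison, with a median of -0.51, and C1qa fell (-1.09, adjusted p = 0.0293). Their part in the values was not tested here either.

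The most precisely measured member was Cdkn1a. Its probe A_44_P914438 was printed 10 times on each array, and the SD between spots of an array lay between 0.04 and 0.07. Its mean ratio to control siRNA was 0.15 with 1 animal and 0.13 with the pool in endoglin siRNA cells, against -0.21 and -0.22 in untreated cells. No spot of either endoglin siRNA array (lowest 0.03) fell to the level of any spot of the untreated arrays (highest -0.15). Repeated spots measure 1 hybridised sample and are not replicates. On this probe the order was endoglin siRNA, control siRNA and untreated from high to low on both RNA sources. The place of control siRNA in it cannot be told apart from a dye preference. On the dim probe A_44_P515275 the 1-animal untreated ratio was 0.01, not below control siRNA. For probe A_44_P914438 the difference between endoglin siRNA and untreated cells was 0.35 (95% interval 0.15 to 0.55, 1.28-fold). It did not pass (limma adjusted p = 0.261).

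Bax, the pore-forming effector of mitochondrial apoptosis, was also printed 10 times. Its ratios were -0.0024 and 0.10 in endoglin siRNA cells, against -0.14 and -0.24 in untreated cells, a difference of 0.24 ± 0.09 (adjusted p = 0.548). The arrays of the groups did not overlap in their means.

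**Figure D2:**
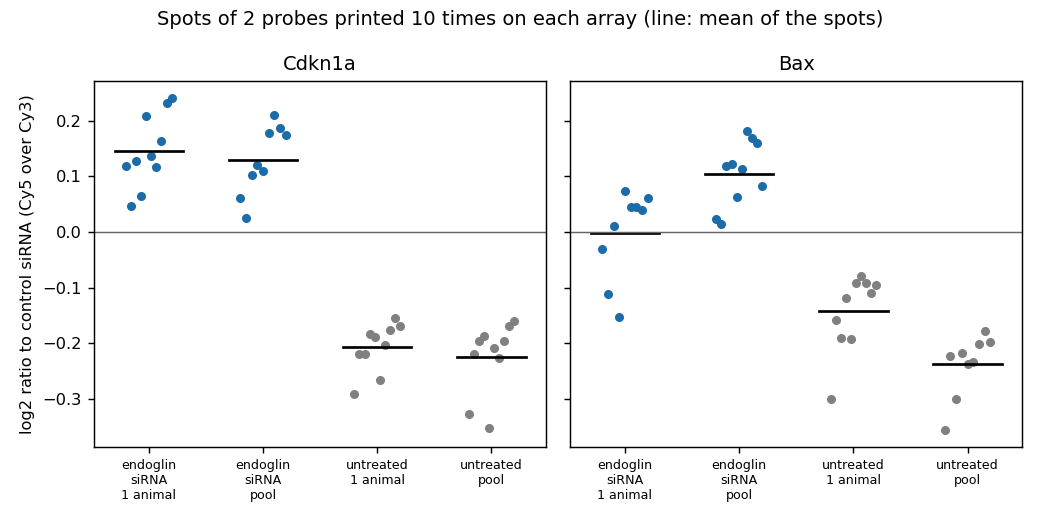
Log2 ratio to control siRNA (vertical axis) of every spot of the Cdkn1a and Bax probes that are printed 10 times, by array, with endoglin siRNA arrays in blue and untreated arrays in grey; the line is the mean of the spots used. The Cdkn1a means are 0.15 and 0.13 in endoglin siRNA cells, against -0.21 and -0.22 in untreated cells.

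The largest difference from untreated cells among these genes was that of Gdf15, 0.78 ± 0.32 (adjusted p = 0.606). It was 1.31 and passed without the pooled endoglin siRNA array (adjusted p = 0.0231), and was 0.24 without the 1-animal endoglin siRNA array. Btg2 differed by 0.69 ± 0.19 (adjusted p = 0.355), Fas probe A_42_P652897 by 0.57 ± 0.10 (adjusted p = 0.131) and Bbc3 by 0.32 ± 0.09 (adjusted p = 0.34). The Ccng1 probes differed by 0.39 ± 0.14 (A_44_P235919, adjusted p = 0.508) and 0.34 ± 0.11 (A_44_P367761, adjusted p = 0.438). The values of Phlda3, Cdkn1a probe A_44_P515275 (0.19, 95% interval -0.058 to 0.44), Gadd45a (0.16, 95% interval -0.10 to 0.42) and both Mdm2 probes (0.10, -0.14 to 0.33 for A_43_P16885 and 0.06, -0.23 to 0.34 for A_44_P634946) had intervals that included 0. These intervals do not show that the levels were alike.

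**Figure D3:**
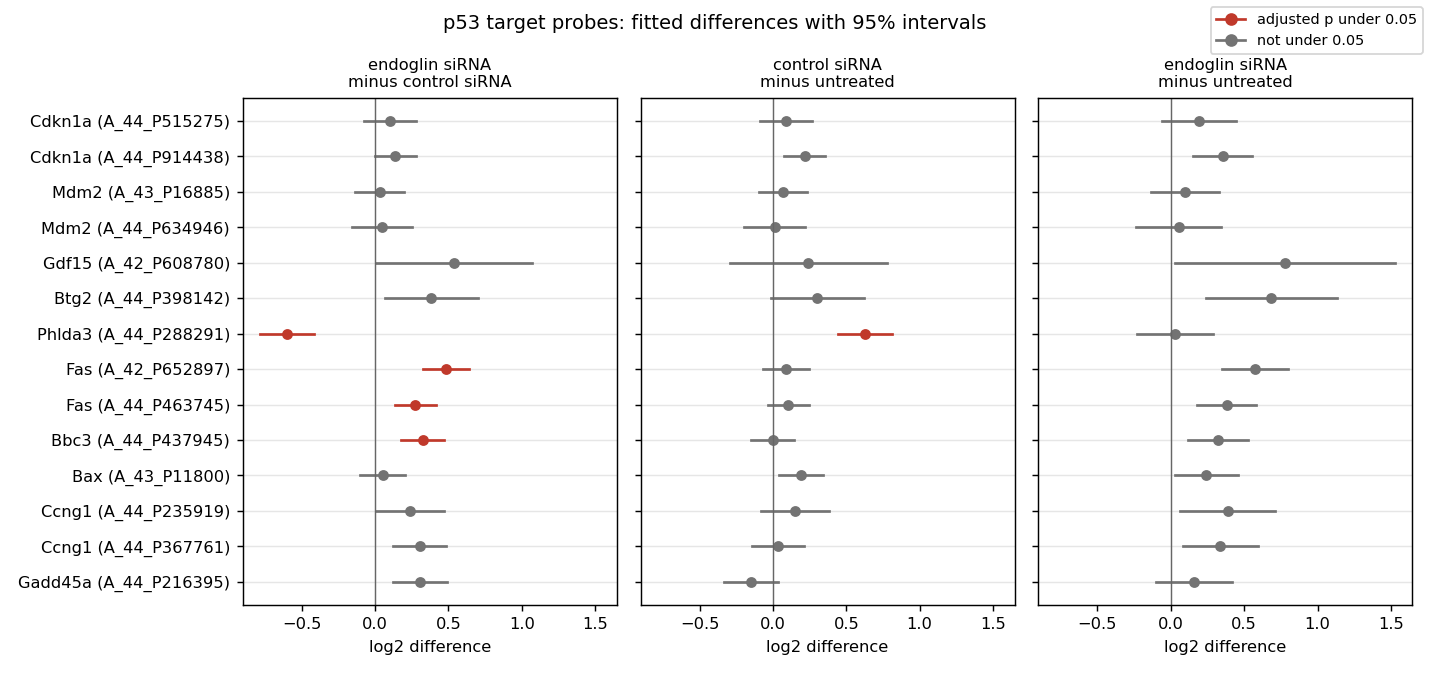
Log2 difference (horizontal axis) of the 14 p53 target probes (rows) in the 3 comparisons, with 95% intervals from the limma fit; red marks an adjusted p under 0.05. In the left panel 4 probes are red, in the middle only Phlda3 and in the right none.

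Whether the endoglin siRNA step and the transfection step differ in size for any of these genes was not tested, because each step is a ratio to the same Cy3 channel. The sign is turned in the transfection step, so a dye preference of a probe would enter the steps with opposite signs. Side by side, the endoglin siRNA step exceeded the transfection step for Fas probe A_42_P652897 (0.48 and 0.09), Bbc3 (0.32 and -0.0016) and Gadd45a (0.31 and -0.15). It did so too for Fas probe A_44_P463745 (0.27 and 0.11), Gdf15 (0.54 and 0.24) and Btg2 (0.38 and 0.30). The same held for Ccng1 probes A_44_P235919 (0.24 and 0.15) and A_44_P367761 (0.30 and 0.04). For Cdkn1a probe A_44_P914438 (0.14 and 0.22), Bax (0.05 and 0.19) and Mdm2 probe A_43_P16885 (0.03 and 0.07) the transfection step was the larger. The second probes of Cdkn1a (A_44_P515275, 0.10 and 0.09) and Mdm2 (A_44_P634946, 0.04 and 0.01) ran the other way. The steps of Phlda3 were -0.60 and 0.63.

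Genes around the p53 pathway were described from further lists. Of 24 other p53 targets measured, 3 were higher in endoglin siRNA cells than in control siRNA cells and none was lower: Igfbp3 (0.50, adjusted p = 0.0201), which binds insulin-like growth factors, Pcna (0.48, adjusted p = 0.0249), the sliding clamp of DNA replication, and Ercc5 (0.36, adjusted p = 0.0208), a nuclease of excision repair. Over all probes 5.19% were higher and 3.09% lower. The ratios of these genes to control siRNA were positive on every array. In endoglin siRNA cells they were 0.69 and 0.31 for Igfbp3, 0.28 and 0.67 for Pcna and 0.28 and 0.45 for Ercc5. In untreated cells they were 0.19 and 0.26 for Igfbp3, 0.19 and 0.30 for Pcna and 0.17 and 0.11 for Ercc5. A higher level in endoglin siRNA cells and a dye preference of these probes therefore cannot be told apart. The median of the list was -0.03, and 10 of the 24 were positive, as were 57.1% of all probes. None passed between control siRNA and untreated cells or between endoglin siRNA and untreated cells, where 0.834% and 0.101% of all probes passed. Cd82, a tetraspanin that suppresses metastasis, had the largest difference between control siRNA and untreated cells (0.27 ± 0.08, adjusted p = 0.19).

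Of 13 measured regulators of p53 none passed in any comparison. The largest difference was that of the p53 kinase Hipk2 in endoglin siRNA cells against control siRNA cells (0.30 ± 0.08, adjusted p = 0.0729). Of 12 partners in apoptosis none passed either, and the largest difference there was that of the anti-apoptotic gene Bcl2l1 (0.37 ± 0.10 against control siRNA, adjusted p = 0.0633). Over all probes 8.28% passed between endoglin siRNA and control siRNA cells and 0.834% between control siRNA and untreated cells. Between endoglin siRNA and untreated cells 0.101% passed.

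Genes that p21 and the DREAM complex repress are known to fall when p53 is active. Of 26 measured, E2f1 (0.48, adjusted p = 0.0163), a transcription factor of S-phase entry, and cyclin A2, Ccna2 (0.35, adjusted p = 0.0473), were higher in endoglin siRNA cells than in control siRNA cells, and none was lower, where 5.19% of all probes were higher and 3.09% lower. Of the 26, 23 were positive in that comparison, with a median of 0.20, where 57.1% of all probes were positive. In control siRNA cells against untreated cells none passed, where 0.834% of all probes passed, and the median was 0.03. In endoglin siRNA cells against untreated cells 25 of the 26 were positive, with a median of 0.23, where 58.3% of all probes were positive. None passed there, where 0.101% of all probes passed.

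Stress genes that share members or triggers with the p53 targets were also listed. In endoglin siRNA cells against control siRNA cells, where 5.19% of all probes were higher and 3.09% lower, 3 of 11 measured genes of the integrated stress response were higher and 1 lower. They were Ddit3 (0.66, adjusted p = 0.00444), Herpud1 (0.54, adjusted p = 0.0137), Atf3 (0.40, adjusted p = 0.0249) and, lower, the mTOR inhibitor Ddit4 (-0.97, adjusted p = 0.0351). Of 11 immediate-early genes 5 were higher, among them Klf6 (0.63, adjusted p = 0.00567) Egr1 (0.56, adjusted p = 0.0126) and Ier2 (0.39, adjusted p = 0.0196), and 2 were lower, Junb (-0.54, adjusted p = 0.00936) and Dusp1 (-0.32, adjusted p = 0.0379). Junb (0.51, adjusted p = 0.0394) and Dusp1 (0.49, adjusted p = 0.0346) were higher in control siRNA cells than in untreated cells. As for Phlda3, their ratios to control siRNA were below 0 on all 4 arrays. So were those of Ddit4 (-1.53 and -0.40 in endoglin siRNA cells, against -0.38 and -0.44 in untreated cells). Those of Herpud1, Atf3, Klf6, Egr1 and Ier2 were above 0 on all 4 arrays. A dye preference of these probes cannot be told apart. Ddit3 was above 0 in endoglin siRNA cells only. None of either list passed between endoglin siRNA and untreated cells, where 0.101% of all probes passed.

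**Figure D4:**
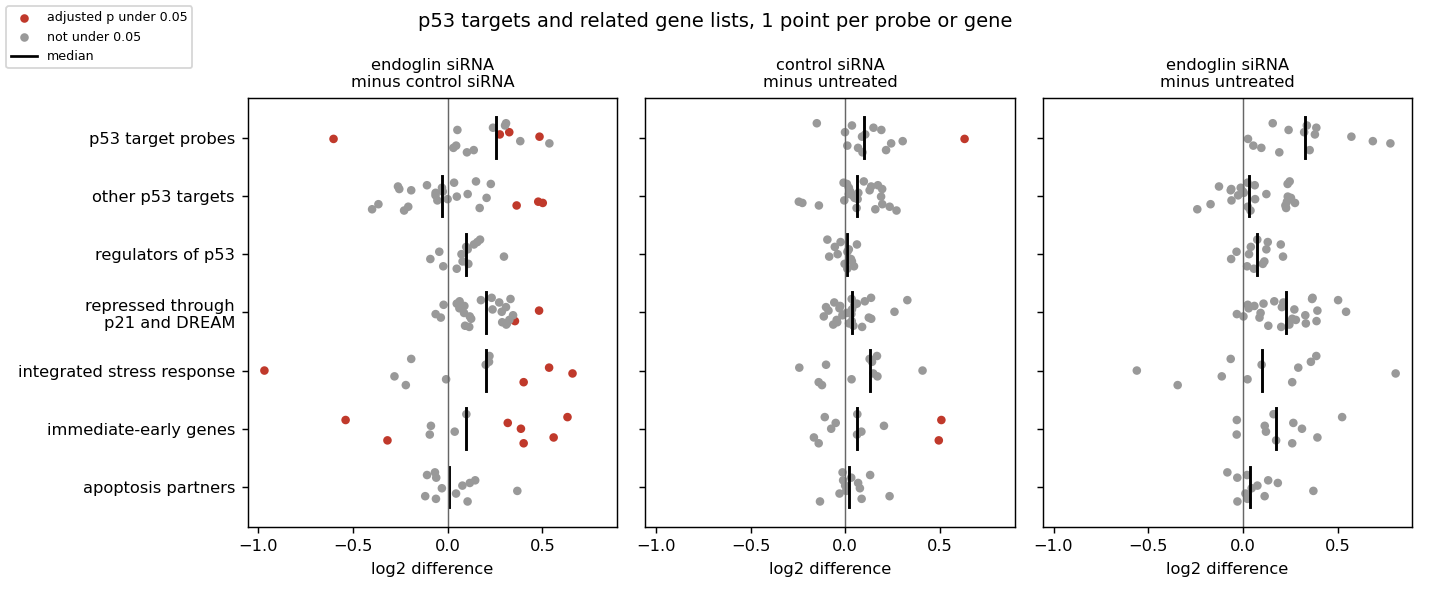
Log2 difference (horizontal axis) of the p53 target probes and of 6 related gene lists (rows) in the 3 comparisons, 1 point per probe or gene; red marks an adjusted p under 0.05 and the black line the median. The p53 target probes have medians of 0.26, 0.10 and 0.33.

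By Euclidean distance over the 4 log2 ratios, the probes whose pattern was nearest to Cdkn1a probe A_44_P914438 were those of Ddx21 (0.07), Yrdc (0.08) and Kazald1 (0.09). The nearest member was Bax (0.16), and the farthest was Phlda3 (1.22).

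The calls among the p53 targets did not hold under every dye normalisation and scaling. With median centring none of the 14 probes passed, all 14 differences from control siRNA were positive, and their median was 1.33 against 0.32 over all probes; Fas probe A_42_P652897 differed by 1.59 and Bbc3 by 1.43 (adjusted p = 0.207 each). With scaling between arrays none passed either, and these 2 differed by 1.00 and 0.56 (adjusted p = 0.432 each). With the log ratios that Feature Extraction wrote, or with the deposited value table, none of the 14 probes passed in any comparison, nor did any of all probes; at an unadjusted p under 0.05 the counts of members were 5, 1 and 4 in the order of the comparisons above. Fas probe A_42_P652897 then had a difference from control siRNA of 0.49 (adjusted p = 0.076), Bbc3 of 0.40 with Feature Extraction (adjusted p = 0.0869) and Phlda3 of -0.66 (adjusted p = 0.0695).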

How the data were processed

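The data are 4 two-colour arrays on 1 slide, read in 1 scan, so slide and scan could not enter the fit. Per the file headers, the authors extracted signals with Feature Extraction 9.5.1.1 of Agilent. Mean and local background signals are deposited as linear intensity values, and the software's own ratios as log10 of Cy5 over Cy3. A deposited table of values also holds log10 ratios. Set against the arrays, its endoglin siRNA columns ran as Cy5 over Cy3 and its untreated columns with the opposite sign, each with a median of 0, with differences of at most 0.0048 and a missing value in 1 case. Direction follows the dyes that the labels name, and correlations between the arrays' ratios lay between 0.35 and 0.63. The array files hold no probe sequence that was used here.

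Signals were corrected by normexp (offset 50) and normalised within arrays by loess, with control spots at weight 0 and outlier spots removed. Spots of a probe were averaged on the log2 scale, and a probe was kept if either channel was well above background on 2 or more arrays. Of 30021 such probes, 176 lacked a usable spot on some array, which left 29845. The 2 group means were fitted with limma 3.58.1 in R 4.3.3 (version 1.17.8 of data.table), with Benjamini-Hochberg adjustment over all kept probes at 0.05 (2 residual degrees of freedom, 5.54 prior). All adjusted p-values are from limma. The fit was tested on simulated data. Gene names were brought up to date with RefSeq (GRCr8). For 10735 of the 41012 probes the accession gave the name, for 5571 the symbol and for 3729 a synonym; 20977 kept the array's name.

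The members and lists were chosen with earlier results of these data known. Every member is named. From the other lists come genes that passed (at most 4 per list and comparison, lowest p first) or else the largest difference, and the brightest probe stands for a gene. A gene named by this rule in 1 comparison may be given in another. Some genes of these lists are not reported here and are not counted in them. Alternatives concerned background, dye normalisation, scaling, filter, probe summary, block and omitted arrays. With 2 pairs of arrays and no statement that a source shares animals, the 1-animal and pooled arrays were not treated as pairs.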

Additional observations from a re-analysis of the deposited data

How the results depend on the processing

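Across the alternatives, 492 values of single probes kept their direction and side of the threshold, 30 lost the call, 19 gained it and 39 changed sign. Leaving out 1 array gave 1118 to 3395, 0 to 991 and 0 to 511 calls over all probes and 3 to 5, 0 to 1 and 0 to 1 among the 14 (endoglin siRNA against control siRNA, control siRNA against untreated, endoglin siRNA against untreated, the order kept below). The lone array then left in a group is assumed to vary like the other group.

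Over all probes, in place of 2472, 249 and 30, there were 5808, 922 and 169 calls without background correction and 5023, 557 and 219 without the disturbed spots (2616 higher and 2407 lower in the first, in place of 1549 and 923). There were 421 and 57 in the last 2 comparisons without the filter, 132 and 17 with probes averaged by gene, and 1576 and 991 in the first 2 with only the 2 arrays of each. Feature Extraction ratios, the deposited table, median centring and scaling between arrays gave 0 calls over all probes and 0 among the 14 in every comparison. At an unadjusted p under 0.05 they left 8595, 8593, 6945 and 1725 probes in the first comparison. Median centring moved the median of all probes to 0.32, -0.0070 and 0.26. The cause of these changes was not tested, except that fits on only 2 arrays hold fewer arrays.

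The RNA source as a block gave 4794, 1441 and 389 calls over all probes and 9, 1 and 3 among the 14, the last being Gdf15, Btg2 and Fas A_42_P652897 (adjusted p = 0.0151, 0.0203 and 0.0228). The sources deviated together with a correlation of 0.29 over all probes. With only 2 pairs this value cannot decide whether the arrays of a source are paired.

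These signs changed. Without background correction, Mdm2 A_43_P16885 was -0.0022 in the first comparison, Mdm2 A_44_P634946 -0.017 and -0.0040 in the others, and Phlda3 -0.034 in the last. Without the disturbed spots these were -0.023, -0.019, -0.012 and -0.030. Feature Extraction ratios and the deposited table both gave -0.059 (A_43_P16885) and -0.039 (A_44_P634946) for Mdm2 and -0.023 for Cdkn1a A_44_P515275 in the first, and -0.039 and -0.040 for Phlda3 and -0.027 for Mdm2 A_44_P634946 in the last. Median centring gave Phlda3 0.48 in the first, and in the second Fas A_42_P652897 -0.0038, Ccng1 -0.0078 (A_44_P235919) and -0.14 (A_44_P367761), Cdkn1a A_44_P515275 -0.0025 and Mdm2 A_44_P634946 -0.075. Scaling between arrays gave Bbc3 0.0074 in the second and Phlda3 -0.38 in the last.

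Without 1 array, the range in the first comparison was -0.0024 to 0.10 for Bax, -0.071 to 0.13 for Mdm2 A_43_P16885 and -0.13 to 0.22 for Mdm2 A_44_P634946. In the second it was -0.040 to 0.52 for Gdf15, -0.027 to 0.10 for Ccng1 A_44_P367761, -0.017 to 0.62 for Btg2, -0.027 to 0.024 for Bbc3, -0.0062 to 0.19 for Cdkn1a A_44_P515275 and -0.033 to 0.054 for Mdm2 A_44_P634946. In the last it was -0.0036 to 0.20 for Mdm2 A_43_P16885, -0.092 to 0.15 for Phlda3 and -0.12 to 0.23 for Mdm2 A_44_P634946. Precision is limited by 2 arrays a group.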

Other observations

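The sources of RNA, pool and 1 animal, differed in the level of some p53 targets by more than the 1.72-fold of Gdf15 between endoglin siRNA and untreated cells. Net Cy3 signals of the control siRNA samples were scaled to the 75th percentile of each array, and the 2 pooled arrays were set against the 2 arrays with cells of 1 animal. Gdf15 was 3.49-fold higher in the pool and Gadd45a 2.48-fold higher, whereas Btg2, an antiproliferative immediate-early target, was 3.24-fold lower in the pool. In each of these 3 genes both pooled arrays lay at least 2-fold from both 1-animal arrays, 2 of the 14 probes above and 1 below, where 4.93% of all probes lay above and 3% below.

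For Btg2 the scaled log2 levels were 0.27 and 0.34 in the pool and 2.02 and 1.98 with 1 animal. For Gadd45a they were 2.72 and 2.68 in the pool and 1.37 and 1.40 with 1 animal, so arrays of a source differed little beside the distance between sources. For Gdf15 they were 0.48 and 0.70 in the pool and -0.73 and -1.69 with 1 animal, where the 2 arrays of 1 animal differed by 0.96, the widest gap between arrays of a source among the 14 probes. Ccng1 was 1.68-fold (A_44_P235919) and 1.74-fold (A_44_P367761) higher in the pool and Bbc3 1.81-fold lower. Bax was 1.01-fold higher and Cdkn1a probe A_44_P914438 1.21-fold higher. These levels were not tested, since the arrays of a source may share a preparation.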
